A study of Mus musculus with 136 samples.

Results

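The 44 genes described here act in the cell division cycle. They were taken as the rows of the deposited count table that carry the symbols of a fixed list of cyclins, kinases, replication factors and mitotic proteins. All 44 symbols were found among the 47643 genes of the table, and all 44 passed the filter on low counts in each comparison. By role, 10 members act in G1 and at the entry into S phase, 12 license and carry out DNA replication, 8 act in G2 and at mitotic entry, 12 belong to chromosomes, kinetochores and the spindle, and 2 act at the exit from mitosis.

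In a dividing cell, D-type cyclins with Cdk4 or Cdk6, and then E-type cyclins with Cdk2, inactivate the retinoblastoma protein, and this frees E2F factors to transcribe replication genes. Cdc6 and Cdt1 load the Mcm2-7 helicase onto origins in G1, and cyclin A and cyclin B with Cdk1 later drive the cell through G2 into mitosis. Many transcripts of these genes rise and fall within each cycle, so in a tissue their level depends both on how many cells divide and on the length of each phase. In bulk samples such as these, fewer cells of a type and less RNA per cell cannot be told apart.

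RNA of the NOD mouse strain, whose females become diabetic without treatment, was measured at E8.5, in embryos and their visceral yolk sacs. Dams on a chow diet were either diabetic, with glucose of 449 to 595 mg/dl in the earlier and 423 to 568 mg/dl in the later concepti and 1 earlier conceptus above the range of the meter, or normal, with 105 to 164 and 109 to 135 mg/dl. The sires were normoglycemic NOD males, and no drug was used to induce diabetes. Concepti were grouped by somite pairs, the blocks of paraxial mesoderm that form one after another. At 5–6 somite pairs there were 17 concepti from 9 diabetic litters and 17 from 10 normal litters. At 7–9 somite pairs there were 16 from 6 diabetic and 16 from 7 normal litters, and 7 of the 16 diabetic concepti came from the litter D24M15. Each conceptus gave an embryo library and a yolk sac library, and a yolk sac was staged by the somite pairs of its own embryo, since its labels give none.

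The 132 libraries compared held 1017901 to 5658850 counts of distinct molecules, with a median of 2302819. Values below are normalized counts, that is, counts divided by a size factor for each library, and fold changes are on the log2 scale. Summed over 10 visceral endoderm markers, embryos held 96.3 to 3362 normalized counts and yolk sacs 10372 to 53508, so the tissue labels held in every library. Summed over 5 primitive erythroid markers, the range was 2.56 to 4633 in embryos and 5310 to 45375 in yolk sacs. No library contradicted its own sex label, but in 2 concepti the embryo and the yolk sac differed in sex, and tests that join both tissues were also run without them. None of the 44 members had a library with a count of 0.

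Many of these genes share sequence motifs in their promoters. RefSeq sequences (GRCm38.p6, from 250 bases before to 50 bases after the start) were matched for 36 members and 27025 genes in all. Mcm4, Ccnd1, Tpx2, Ccna2, Ccnd2, Cdc25c, Aurkb and Ccne2 had no entry. On either strand, an E2F-type site (TTTCCCGC, TTTGGCGC, TTTCGCGC or TTTGCCGC) stood in 25% of the member promoters and 2.60% of all promoters, and in 6 of 11 of the replication genes but 0 of 10 of the chromosome and spindle genes. The cell cycle homology region (CHR; TTTGAA or TTCGAA) stood in 47.2% of member promoters and 21.7% of all, in 5 of 6 of the mitotic entry genes, in 8 of 10 of the chromosome and spindle genes and in 0 of 7 of the G1 genes. A CCAAT box (CCAAT) stood in 77.8% of member promoters and 41.1% of all. E2F-type sites can overlap one another, and a match in these letters is a description of the sequence and not a measured binding site. Below, 3 replication genes and 2 mitotic genes stand for both kinds, each 5′ to 3′ on the strand of its gene, with the letters of any of the 3 motifs in capitals. The Mcm3 promoter lies at chr1:20820263-20820562 on the minus strand, that of Mcm5 at chr8:75109259-75109558 on the plus strand, that of Mcm6 at chr1:128359656-128359955 on the minus strand, that of Plk1 at chr7:122159185-122159484 on the plus strand and that of Top2a at chr11:99024140-99024439 on the minus strand.
Mcm3: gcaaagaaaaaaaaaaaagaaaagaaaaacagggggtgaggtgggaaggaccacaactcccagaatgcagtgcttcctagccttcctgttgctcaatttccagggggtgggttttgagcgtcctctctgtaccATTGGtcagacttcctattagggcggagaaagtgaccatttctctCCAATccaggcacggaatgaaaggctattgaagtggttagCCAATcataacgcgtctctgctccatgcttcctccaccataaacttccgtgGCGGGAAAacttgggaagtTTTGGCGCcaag
Mcm5: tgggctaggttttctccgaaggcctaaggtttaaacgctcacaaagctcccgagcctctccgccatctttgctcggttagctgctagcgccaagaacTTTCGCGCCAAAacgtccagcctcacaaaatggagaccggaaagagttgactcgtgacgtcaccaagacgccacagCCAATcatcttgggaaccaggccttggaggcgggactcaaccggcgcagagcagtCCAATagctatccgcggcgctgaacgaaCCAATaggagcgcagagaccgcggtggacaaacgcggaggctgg
Mcm6: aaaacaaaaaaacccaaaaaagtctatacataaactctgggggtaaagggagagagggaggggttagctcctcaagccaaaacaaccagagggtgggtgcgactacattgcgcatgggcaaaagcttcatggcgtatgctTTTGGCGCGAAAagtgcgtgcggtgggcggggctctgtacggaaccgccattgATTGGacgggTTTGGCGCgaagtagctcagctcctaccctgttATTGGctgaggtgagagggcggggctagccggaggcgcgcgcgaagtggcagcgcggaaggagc
Plk1: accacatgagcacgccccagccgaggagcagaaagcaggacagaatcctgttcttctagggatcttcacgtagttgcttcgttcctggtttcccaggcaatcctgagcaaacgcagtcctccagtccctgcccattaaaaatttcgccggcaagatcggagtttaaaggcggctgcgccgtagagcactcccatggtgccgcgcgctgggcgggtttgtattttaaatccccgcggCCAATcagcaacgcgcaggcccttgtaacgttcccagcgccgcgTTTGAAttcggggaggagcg
Top2a: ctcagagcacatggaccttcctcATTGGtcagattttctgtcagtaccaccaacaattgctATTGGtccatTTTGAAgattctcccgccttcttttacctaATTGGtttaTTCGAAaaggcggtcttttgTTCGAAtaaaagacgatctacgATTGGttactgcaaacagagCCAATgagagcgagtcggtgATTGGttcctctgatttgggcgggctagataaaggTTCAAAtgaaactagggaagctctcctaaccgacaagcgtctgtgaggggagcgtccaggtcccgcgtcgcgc

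The promoters of Mcm3, Mcm5 and Mcm6, subunits of the replicative helicase, held 2, 2 and 3 E2F-type sites and no CHR. The promoter of Top2a, which encodes the topoisomerase that untangles sister chromatids, held 4 CHR and 6 CCAAT boxes, and that of Plk1, a kinase of mitotic entry and spindle assembly, held 1 of each.

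Whether maternal diabetes changed these genes in the embryo was asked first. At 5–6 somite pairs, 3 of the 44 members differed between embryos of diabetic and normal dams at an adjusted p under 0.05 in edgeR's quasi-likelihood test, 1 higher and 2 lower, and 1.46% of the 11004 genes tested passed the same test in either direction. At an unadjusted p under 0.05 there were 8 members, against 21% of all genes. The median difference over the members was 0.07 on the log2 scale and 0.00 over all genes. The 95% interval of the difference lay within 1.5-fold in either direction for 42 of the 44 members and within 2-fold for all 44.

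Wdhd1, at chr14:47240944-47276857, encodes a replication fork protein that links the helicase to DNA polymerase alpha. In embryos at 5–6 somite pairs its lowest, median and highest normalized counts were 362, 418 and 502 under diabetes and 274, 374 and 418 in normal pregnancies. The groups overlapped between 362 and 418, and the difference was 0.25 (SE 0.06, edgeR adjusted p = 0.0357).

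Cdt1, at chr8:122568015-122573554, encodes the licensing factor that loads the helicase. It ranged from 383 through a median of 515 to 625 under diabetes and from 456 through 664 to 855 in normal pregnancies, and fell by 0.31 (SE 0.08, edgeR adjusted p = 0.0482). Cdc25b, at chr2:131186949-131198497, encodes a phosphatase that activates Cdk1 at mitotic entry. It ranged from 55.5 through 81.5 to 124 under diabetes and from 53.2 through 105 to 189 in normal pregnancies, and fell by 0.48 (SE 0.13, edgeR adjusted p = 0.0478). For both genes the groups overlapped widely, and the normal libraries reached higher. Neither was called with somite number or with sex as a covariate. Of the concepti of this stage, 13 diabetic and 11 normal had 5 somite pairs, and 4 and 6 had 6. Over both conditions, the embryo medians at 5 and at 6 somite pairs were 516.5 and 644 for Cdt1 and 84.7 and 109 for Cdc25b.

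Littermates share a dam, so the litter means were also compared over all 92378 splits of the 19 litters. Where litters are compared, the normal median is the median of the normal litter means. All 9 diabetic litters lay above the normal median for Wdhd1, with a difference of 0.26 in the two-sided exact permutation test (p = 0.00065), and all 9 lay below it for Cdc25b (-0.45, exact p = 0.0235) and for Cdt1 (-0.30, exact p = 0.0109). These p-values are unadjusted, are 3 of 7 computed in all, and belong to members that the fit had already picked, so they are not independent of it. The exact p-values given below share these limits. When litter entered as a random block in limma, and when counts were summed per litter, 0 of the 44 members passed, and over all genes 4 of 11004 and 0 of 11706 passed. When each litter was left out in turn, between 0 and 6 members passed, and the count over all genes moved as well, from 4 without the litter N28M06 to 675 without N24M21.

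In the later embryos, at 7–9 somite pairs, 1 member was higher and 1 lower in embryos of diabetic dams, 2 of 44 in all, where 9.09% of the 10628 genes tested passed the same edgeR test. At an unadjusted p under 0.05 there were 9 members, against 27.4% of all genes. The median absolute difference was 0.09 over the members and 0.15 over all genes, and the signed medians were -0.03 and -0.01. The 95% interval lay within 1.5-fold for 41 members and within 2-fold for 43.

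The member that fell was Ccnd1, at chr7:144929931-144939925, which encodes cyclin D1, the mitogen-responsive partner of Cdk4 and Cdk6. Under diabetes its lowest, median and highest values were 410, 725 and 992, and in normal pregnancies 692, 981 and 1146. Most diabetic embryos lay below the normal median, and the difference was -0.36 (SE 0.10, edgeR adjusted p = 0.0200). Over litters, 5 of 6 diabetic litters lay below the normal median (-0.41, two-sided exact permutation p = 0.00816 over 1716 splits). The call held with litter as a random block (adjusted p = 0.0481) and not with counts summed per litter (edgeR adjusted p = 0.164). It was also lost without the diabetic litter D28M31.

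The member that rose was Mcm7, at chr5:138164583-138172422, another helicase subunit. It ranged from 1033 through a median of 1213 to 1991 under diabetes and from 910 through 1057 to 1392 in normal pregnancies, groups that overlapped over most of their range, with a difference of 0.24 (SE 0.08, edgeR adjusted p = 0.0455). All 6 diabetic litters lay above the normal median (0.26, exact p = 0.0233), and with litter as a random block the adjusted p was 0.101. Between 0 and 4 members passed when each litter was left out, with 0 without the litter D28M31 and 4 without D24M15, where 522 and 969 of all genes passed. With the 2-digit number of the library titles as a covariate, 6 members passed and 1714 of the 10628 genes tested, and the added members were Ccnd3, Cdk4, Kif11 and Mcm5. Mcm7 overlaps Ap4m1, Cops6 and 3 miRNA genes in the annotation, and Ccnd1 overlaps a neighbour as well. Wdhd1, Cdt1 and Cdc25b, called in the earlier embryos, overlap other annotated genes too, as do further members such as Ccnd2, Cdk4 and Ccna2. The strand setting of the counting is not given in the sources used here.

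No marker of another cell type passed the test in these later embryos. All 8 visceral endoderm markers tested had a positive difference (median 0.52, lowest edgeR adjusted p = 0.187), as had all 3 primitive erythroid markers tested (median 1.23, lowest adjusted p = 0.0941), while the endothelial markers were split, 3 and 3 of 6. Their part in the values of Ccnd1 and Mcm7 was not tested.

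**Figure D1:**
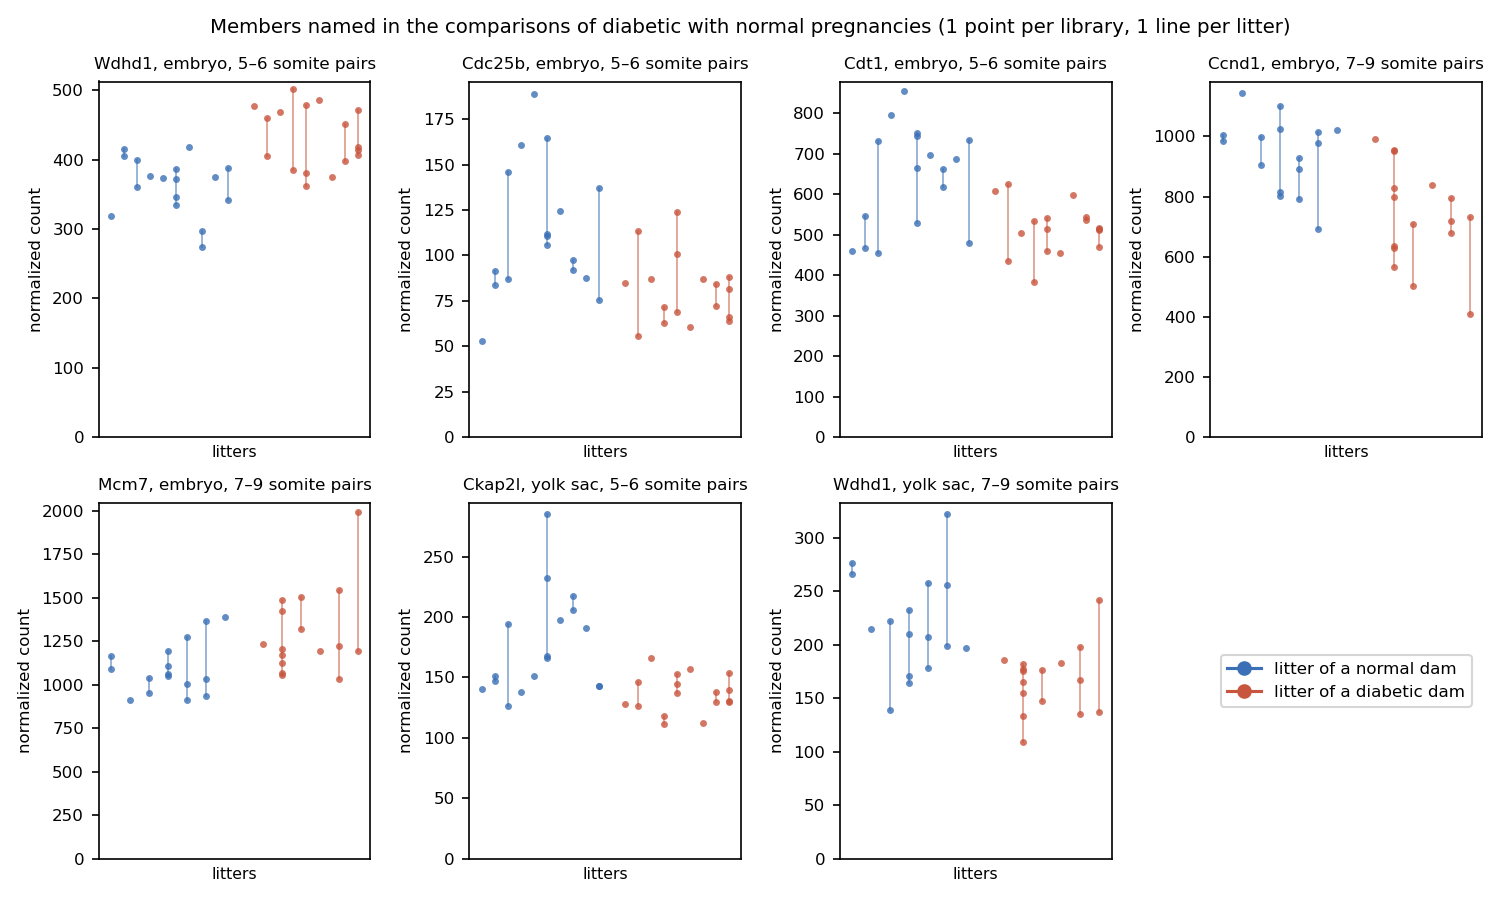
Normalized counts (y axis, from 0) of the members named in the comparisons of diabetic with normal pregnancies, 1 point per library and 1 vertical line joining littermates, with litters side by side on the x axis (blue, litters of normal dams; red, litters of diabetic dams). In embryos at 5–6 somite pairs all 9 diabetic litters had a mean above the median of the normal litter means for Wdhd1. All 9 had a mean below it for Cdc25b and Cdt1. Single libraries of both conditions overlapped in every panel.

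In yolk sacs no member passed in either comparison of conditions. At 5–6 somite pairs, 0 of 44 members and 0% of the 10250 genes tested passed in edgeR, and DESeq2 likewise called 0 members. At an unadjusted p under 0.05 there were 2 members, against 8.42% of all genes. At 7–9 somite pairs, 0 of 44 members passed in edgeR and in DESeq2, where 0.0194% of the 10317 genes tested passed in edgeR, and 7 members had an unadjusted p under 0.05 against 10.9% of all genes. The median difference over the members was -0.02 at 5–6 and -0.07 at 7–9 somite pairs. The 95% interval of the difference lay within 1.5-fold for 41 and 43 members and within 2-fold for all 44 at either stage.

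The lowest p at 5–6 somite pairs belonged to Ckap2l, which encodes a spindle protein of neural progenitors. Its yolk sac values were 112, 137 and 166 (lowest, median, highest) under diabetes and 126, 166 and 286 in normal pregnancies. The diabetic libraries did not rise above the median of the normal libraries, with a difference of -0.36 (SE 0.09) that had an edgeR adjusted p of 0.308. Of the diabetic litters, 7 of 9 had a mean below the median of the normal litter means (-0.29, two-sided exact permutation p = 0.0122). Ckap2l was picked as the lowest p of the members in these same libraries, so this unadjusted p is not independent of the fit.

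The lowest p at 7–9 somite pairs belonged to Wdhd1, with 109, 171 and 242 under diabetes and 139, 213 and 322 in normal pregnancies. The difference was -0.40 (SE 0.10) with an edgeR adjusted p of 0.175. All 6 diabetic litters lay below the normal median (-0.32, exact p = 0.00816). Wdhd1 was picked here in the same way, so this p too is unadjusted and not independent of the fit. The summed decidua markers reached 913 in the diabetic and 172 in the normal yolk sacs of this stage, from a low of 112 and 93.4. No gene of that list passed the test, and its part in the values of Wdhd1 was not tested.

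Members were also summed by phase, and abundant genes weigh most in such sums. In embryos at 5–6 somite pairs, medians were 3680 for Top2a, 1707 for Birc5 and 1598 for Plk1. The sum of all 22 G2 and mitotic members had a median of 14101 in normal embryos of that stage. The 12 replication genes together had medians of 7309 normalized counts under diabetes and 7357 in normal embryos at 5–6 somite pairs, and of 6945 and 6816 at 7–9 somite pairs. In yolk sacs these medians were 4854 and 4909, then 4413 and 4643. The sum of the 22 G2 and mitotic members divided by that of the replication members had medians of 1.92 under diabetes and 1.96 in normal embryos at the earlier stage and of 2.03 and 2.09 at the later stage, and in yolk sacs of 2.65 and 2.66, then 2.55 and 2.78. In each of these pairs the ranges of diabetic and normal libraries overlapped.

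Other genes of the cycle were examined as 34 further S phase genes, 36 further G2 and M phase genes and 10 inhibitors and pocket proteins, of which 6 or 7 passed the filter. In embryos at 5–6 somite pairs, 0 of 34 and 0 of 36 passed in edgeR (6 and 12 at an unadjusted p under 0.05, against 21% of all genes). Among the inhibitors, Cdkn1a, the p53-responsive inhibitor p21 of cyclin-dependent kinases, rose by 0.76 (SE 0.18, edgeR adjusted p = 0.0272). That call was lost with counts summed per litter, where no gene passed. In the later embryos 3 of the 34 S phase genes fell, a share close to the 9.09% of all genes called there. They were E2f8, an E2F repressor (-0.60, adjusted p = 0.0275), Dtl, the adaptor that sends Cdt1 to degradation (-0.36, adjusted p = 0.0020), and Usp1, a deubiquitinase of PCNA (-0.20, adjusted p = 0.0499). None of the 36 G2 and M phase genes passed there, with 8 at an unadjusted p under 0.05, against 27.4% of all genes. In yolk sacs none of the 3 lists held a called gene at either stage.

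The question of whether the effect of diabetes differed between stages was put as an interaction of stage and condition. In embryos 4 of 44 members passed, 1 with a positive and 3 with a negative term, where 8.7% of the 11304 genes tested passed in edgeR. A negative term means that the difference between diabetic and normal embryos was lower at 7–9 than at 5–6 somite pairs.

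Ccnd1 had the lowest p of these. Its median was 1005 under diabetes and 799 in normal embryos at 5–6 somite pairs (range 667 to 1474 and 471 to 1065), a difference of 0.35 that had an edgeR adjusted p of 0.0810. By 7–9 somite pairs the order turned to 725 under diabetes and 981 in normal embryos. The interaction was -0.69 (SE 0.15, edgeR adjusted p = 0.00594) and -0.77 with litter as a random block (adjusted p = 0.00361).

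Kif11, the motor that pushes spindle poles apart, followed the same order. It had 130, 178 and 315 (lowest, median, highest) under diabetes against 99.4, 150 and 234 in normal embryos at the earlier stage, and 101, 137 and 184 against 122, 152 and 213 at the later stage. Its interaction was -0.46 (SE 0.15, edgeR adjusted p = 0.0386), and its difference passed the test at neither stage alone.

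For Wdhd1 the embryos had medians of 418 and 374 at the earlier stage and of 310 and 318 at the later stage, where diabetic values ran from 258 to 376 and normal values from 205 to 451. Its interaction was -0.31 (SE 0.10, edgeR adjusted p = 0.0456), which did not pass with litter as a random block (adjusted p = 0.102) or without the litter D24M15 (edgeR adjusted p = 0.0959).

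Mcm5 went the opposite way. It had 661, 853 and 1054 under diabetes against 752, 898 and 1248 in normal embryos at the earlier stage, and 744, 941 and 1470 against 723, 855 and 1009 at the later stage. Its interaction was 0.32 (SE 0.10, edgeR adjusted p = 0.0369), and again neither stage passed alone. In all 4 genes the ranges of the groups overlapped at both stages.

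**Figure D2:**
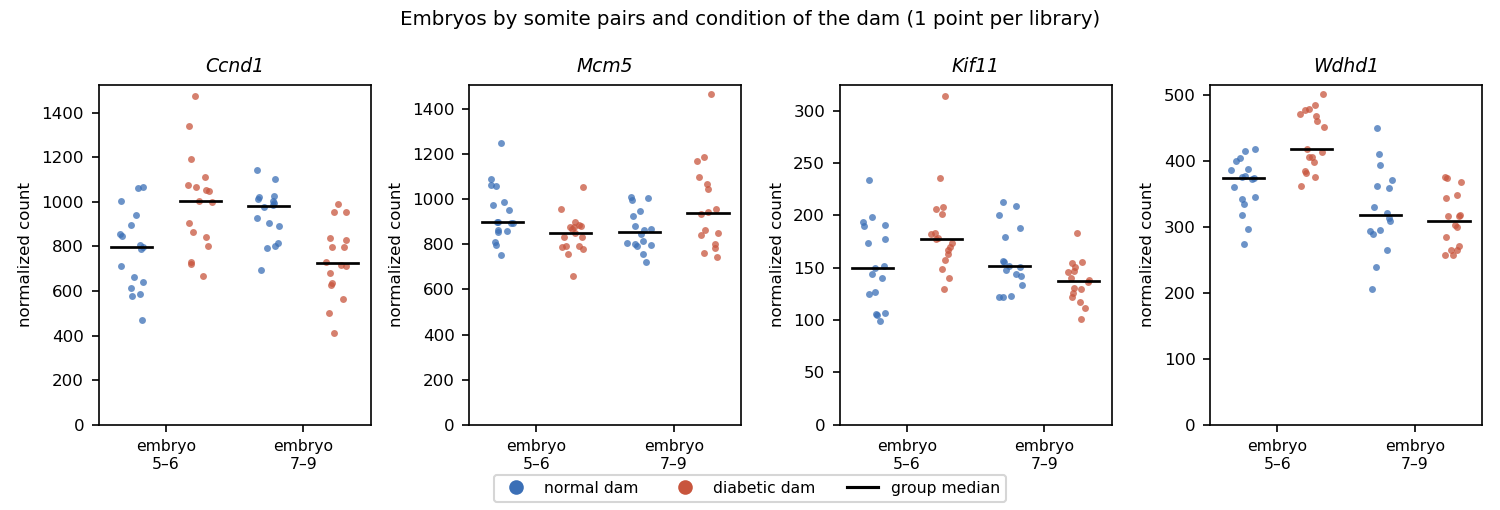
Normalized counts (y axis, from 0) of Ccnd1, Mcm5, Kif11 and Wdhd1 in embryos at 5–6 and 7–9 somite pairs, 1 point per library (blue, normal dams; red, diabetic dams) with a line at each group median. For Ccnd1 the diabetic median lay above the normal one at 5–6 somite pairs (1005 against 799) and below it at 7–9 (725 against 981).

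In yolk sacs, 0 of 44 members and 0% of the 10857 genes tested had an interaction of stage and condition in edgeR, and DESeq2 also called 0 members. At an unadjusted p under 0.05 there were 3 members, against 5.84% of all genes. The lowest p belonged to Wdhd1 (-0.54, SE 0.13, edgeR adjusted p = 0.394). Its yolk sac values had been 223, 255 and 304 under diabetes and 165, 229 and 376 in normal pregnancies at 5–6 somite pairs, so the order of the medians turned between the stages here too.

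Whether diabetes acted differently in embryo and yolk sac was tested in the same way. At 5–6 somite pairs, 0 of 44 members passed and 0% of the 11677 genes tested, and the lowest p belonged to Ckap2l (-0.44, SE 0.13, edgeR adjusted p = 0.472). At 7–9 somite pairs, 0 of 44 members passed, against 0.389% of the 11577 genes tested, and the lowest p belonged to Mcm3 (-0.27, SE 0.09, edgeR adjusted p = 0.111). DESeq2 called 0 members in both, and 4 and 9 members had an unadjusted p under 0.05. At the later stage Mcm3 had 747, 908 and 1040 under diabetes against 747, 827 and 1005 in normal embryos, and 378, 449 and 556 against 355, 505 and 648 in yolk sacs. Of the further S phase genes, Dtl passed at 7–9 somite pairs (0.41, edgeR adjusted p = 0.0488), but without the litter D24M15 no gene passed in that test.

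Between the stages, in fits over 66 libraries rather than 32 or 34, 16 members differed in embryos and 17 in yolk sacs. In embryos, 8 members were higher and 8 lower at 7–9 than at 5–6 somite pairs, where 14.6% of the 11304 genes tested were higher and 15.2% lower in edgeR. In yolk sacs, 5 were higher and 12 lower, against 21.7% and 18.3% of the 10857 genes tested. The median difference over the members was -0.07 in both tissues. The fit held both conditions, with condition as a term.

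The replication genes called in the main fit all fell. Of the 12, 5 were lower and 0 higher in embryos, and 5 were lower and 0 higher in yolk sacs. In both tissues these were Cdt1, Mcm2, Mcm3, Mcm7 and Wdhd1, while the other helicase subunits Mcm4, Mcm5 and Mcm6 did not pass in either. Mcm3 was not called in either tissue without the filter on low counts or without the litter D24M15, and neither Mcm3 nor Cdt1 was called in embryos with somite number in place of stage. With litter as a random block, Pcna was called in embryos as well. Its embryo median was higher at the later stage, 316 against 275 at 5–6 somite pairs. Mcm2 had 333, 478 and 745 normalized counts (lowest, median, highest) in embryos at 5–6 and 175, 369 and 550 at 7–9 somite pairs. Its ranges overlapped, and it fell by 0.35 (SE 0.07, edgeR adjusted p = 0.000115) in embryos, while yolk sacs showed a fall by 0.30 (SE 0.07, adjusted p = 0.000601).

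Wdhd1 had 274, 394 and 502 in the earlier and 205, 315 and 451 in the later embryos, and 165, 241 and 376 in the earlier and 109, 183 and 322 in the later yolk sacs. It fell in embryos by 0.31 (SE 0.05, edgeR adjusted p = 9.58e-06) and by 0.34 (SE 0.07, adjusted p = 0.000133) in yolk sacs, with overlap in both tissues.

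Among the G1 genes, 5 of 10 were higher and 0 lower in embryos. They were Ccnd2 (0.30), Ccnd3 (0.21), Cdk4 (0.25), E2f1 (0.29) and Cdc25a (0.25), which encode cyclin D2, cyclin D3, their kinase, an E2F activator and a phosphatase that activates Cdk2. In yolk sacs 1 was higher and 2 lower. Cdk4 rose by 0.36 (SE 0.07, edgeR adjusted p = 1.32e-05) from 511, 650 and 1314 to 589, 822 and 1326, while Ccnd2 fell by 0.31 and Cdk6 by 0.33.

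Of the 8 members of G2 and mitotic entry, 2 were higher and 2 lower in embryos. Cdc25c, a Cdk1-activating phosphatase, rose by 0.38 (SE 0.09, edgeR adjusted p = 0.000635) from 15.6, 33.5 and 56.8 to 22.2, 43.7 and 57.1. Cdc25b rose by 0.30 (SE 0.09, adjusted p = 0.00705) from 53.2, 87.4 and 189 to 79.7, 112 and 162. Ccna2, cyclin A2, fell by 0.27 (SE 0.05, adjusted p = 8.52e-05) from 434, 582 and 800 to 406, 486 and 652, and Ccnb2, cyclin B2, fell by 0.21, which was not called without the litter D24M15.

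In yolk sacs 1 member of this role was higher and 2 were lower. Cdc25c rose by 0.79 (SE 0.11, edgeR adjusted p = 2.25e-08) from 9.43, 22.1 and 37.3 to 13.2, 39.2 and 64.3, the largest rise among the 44 in this comparison. Plk1 fell by 0.40 (SE 0.09, adjusted p = 0.00018) from 546, 1047 and 1470 to 281, 781 and 1355, and Ccna2 fell by 0.20. For each of these genes the ranges of the stages overlapped.

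Chromosome and spindle genes were led by Birc5, at chr11:117849251-117855743, which encodes survivin, a subunit of the chromosomal passenger complex. In embryos it went from 1313, 1707 and 2788 to 1338, 2691 and 4377, a change of 0.55 (SE 0.08, edgeR adjusted p = 1.43e-07), and in yolk sacs from 1596, 2065 and 4523 to 2023, 2591 and 4407, a rise of 0.32 (SE 0.08, adjusted p = 0.000743). Aurkb, the kinase of the same complex, did not pass in either tissue (-0.09 and -0.11).

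The only other member of this role called in embryos was Tpx2, a spindle assembly factor, which fell by 0.13. It was not called with litter as a random block, where Top2a was, or without the litter D24M15. In yolk sacs Ckap2l rose by 0.25, while Kif11 fell by 0.34 (SE 0.07, adjusted p = 0.000143) from 92.5, 215 and 280 to 121, 161 and 260, Top2a by 0.27 and Bub1b, a checkpoint kinase, by 0.25, of which Bub1b was not called with litter as a random block or without the litter D24M15. At mitotic exit, Ube2c, the ubiquitin-conjugating enzyme of the anaphase-promoting complex, rose by 0.20 in yolk sacs and did not pass in embryos (-0.13), and the rise was not called without the litter D24M15.

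**Figure D3:**
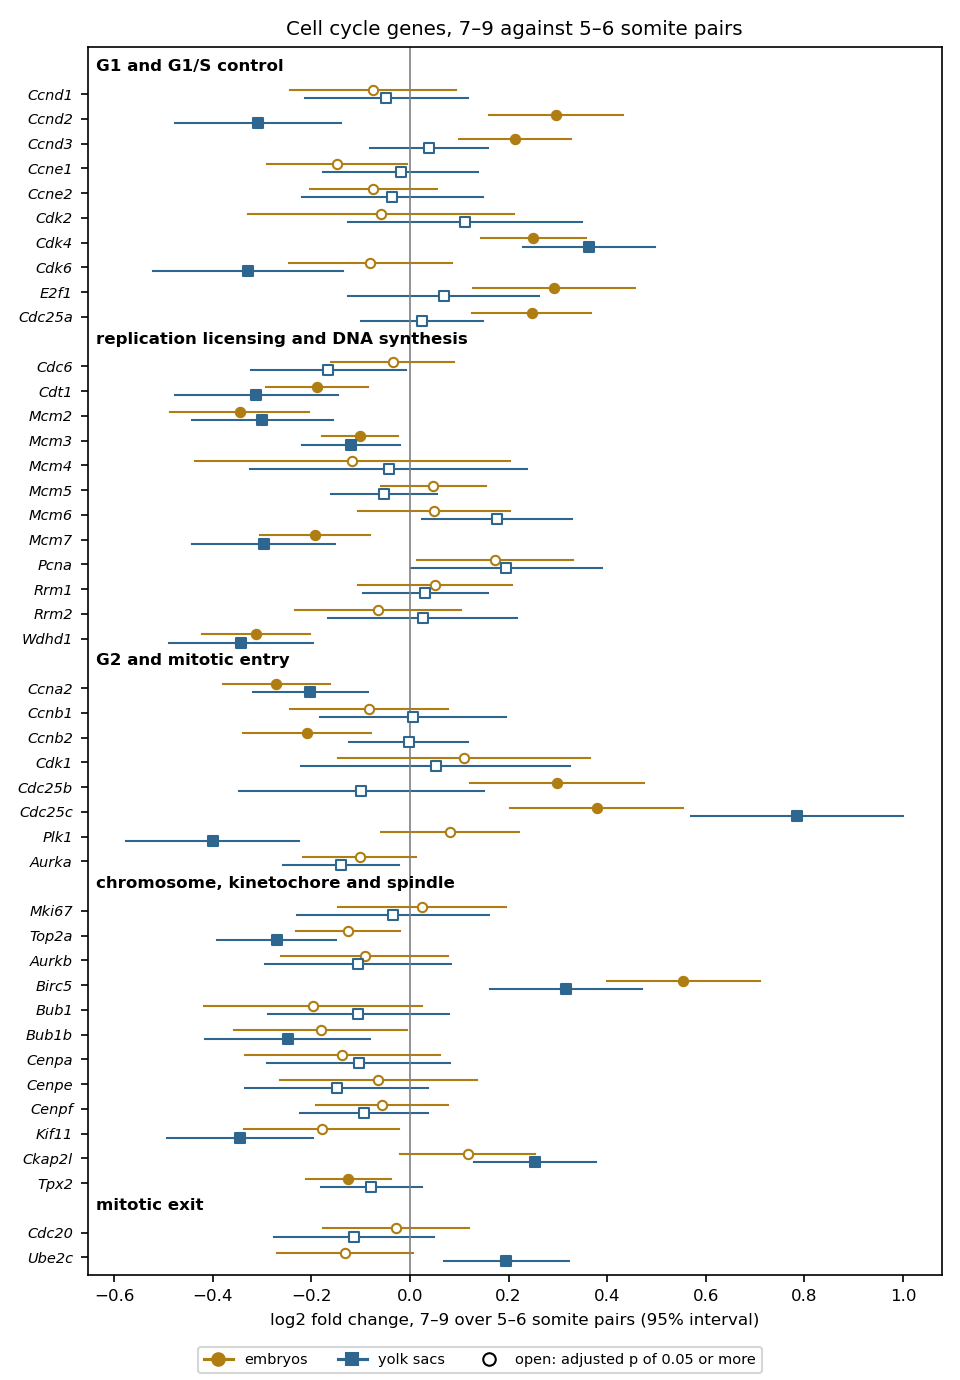
Log2 fold change of each of the 44 members between 7–9 and 5–6 somite pairs (x axis, with 95% intervals), grouped by role, for embryos (circles) and yolk sacs (squares), filled where the edgeR adjusted p was under 0.05. Cdt1, Mcm2, Mcm3, Mcm7 and Wdhd1 lay below 0 in both tissues, Birc5, Cdk4 and Cdc25c above 0 in both, and Ccnd2 on opposite sides.

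The further lists moved in both directions with stage. Of the 34 S phase genes 6 were higher and 7 lower in embryos (Rpa2 0.46, Gins2 0.28, Tipin -0.47, Exo1 -0.33), and 7 were higher and 8 lower in yolk sacs (Fen1 0.36, Chaf1b 0.31, Tipin -0.42, Blm -0.38). Of the 36 G2 and M phase genes 3 were higher and 9 lower in embryos (Tubb4b 0.39, Cks1b 0.25, Ect2 -0.52, Anln -0.40), and 3 were higher and 15 lower in yolk sacs (Tubb4b 0.62, Gtse1 0.52, Hmgb2 -0.66, Gas2l3 -0.46). Of the inhibitors, Cdkn1c, p57, rose in embryos by 0.21 and by 0.56 in yolk sacs, Cdkn1b, p27, fell by 0.25 in embryos, and Cdkn1a and the pocket protein gene Rbl1 fell by 0.29 and 0.25 in yolk sacs.

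Markers of other cell types moved with stage as well. The 3 primitive erythroid markers tested in embryos all rose, with a median of 4.25, and their sum of 5 genes reached 151 in the earlier and 4633 in the later embryos. In yolk sacs 4 of 5 erythroid markers rose (median 0.80), and 8 of 10 visceral endoderm markers rose and 1 fell (median 0.59). Their part in the changes of the members with stage was not tested.

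The largest differences lay between the tissues. At 5–6 somite pairs, 9 members were higher and 25 lower in yolk sacs than in embryos, where 39.3% of the 11677 genes tested were higher and 39.7% lower in edgeR. Later, at 7–9 somite pairs, 7 were higher and 26 lower, against 38.6% and 42.6% of the 11577 genes tested. The median difference over the members was -0.27 at 5–6 and -0.29 at 7–9 somite pairs, and over all genes -0.00 and -0.04. The median absolute difference was smaller over the members than over all genes, 0.36 against 0.54 at 5–6 and 0.33 against 0.60 at 7–9. The same concepti gave both tissues, and with the conceptus as a replicate block the counts were 34 and 33 called, as without it.

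G1 cyclins and kinases held the largest differences in both directions. Ccnd2, at chr6:127125162-127152193, had 1354, 2332 and 3601 normalized counts (lowest, median, highest) in embryos and 170, 438 and 659 in yolk sacs at 5–6 somite pairs, and 2308, 2842 and 4073 against 192, 355 and 559 at 7–9. No yolk sac reached the lowest embryo at either stage, and the differences were -2.38 (SE 0.09, edgeR adjusted p = 3.66e-38) and -3.03 (SE 0.07, adjusted p = 1.15e-47).

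Ccnd1 had 471, 861 and 1474 in embryos against 101, 224 and 320 in yolk sacs at 5–6 somite pairs, and 410, 834 and 1146 against 124, 211 and 286 at 7–9. Here too the tissues did not overlap, and the differences were -1.96 (SE 0.09, edgeR adjusted p = 1.07e-33) and -1.99 (SE 0.07, adjusted p = 7.79e-37).

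Ccnd3, at chr17:47505051-47599691, which encodes the third D-type cyclin, had the opposite order. It had 284, 476 and 633 in embryos against 666, 923 and 1611 in yolk sacs at 5–6 somite pairs, without overlap, and 432, 509 and 833 against 665, 962 and 1347 at 7–9, with overlap. The differences were 1.08 (SE 0.06, edgeR adjusted p = 1.07e-25) and 0.85 (SE 0.05, adjusted p = 8.6e-24). Ccnd3 overlaps Bysl in the annotation.

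Of the kinases, Cdk6 had 91.5, 179 and 253 in embryos against 14.7, 67.1 and 105 in yolk sacs at 5–6 somite pairs (-1.30, SE 0.09, edgeR adjusted p = 8.05e-23) and 73, 171 and 245 against 14.4, 52.9 and 95.4 at 7–9 (-1.60, SE 0.09, adjusted p = 1.57e-26). Cdk4 differed by -0.47 and -0.41. Cdk2 had 40.2, 88.8 and 181 in embryos against 36.1, 136 and 255 in yolk sacs (0.65, SE 0.13, adjusted p = 5e-06) and 23.6, 85.1 and 143 against 62.6, 147 and 197 at 7–9 (0.77, SE 0.12, adjusted p = 2.45e-08). Its ranges overlapped widely, and Cdk2 overlaps Pmel in the annotation. Ccne2, cyclin E2, the partner of Cdk2, was higher by 0.40 and 0.38, and at 7–9 somite pairs had 91.7, 120 and 174 in embryos against 99.7, 144 and 381 in yolk sacs (SE 0.08, edgeR adjusted p = 3.09e-05). Ccne1 did not pass at either stage (0.03 and 0.11).

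**Figure D4:**
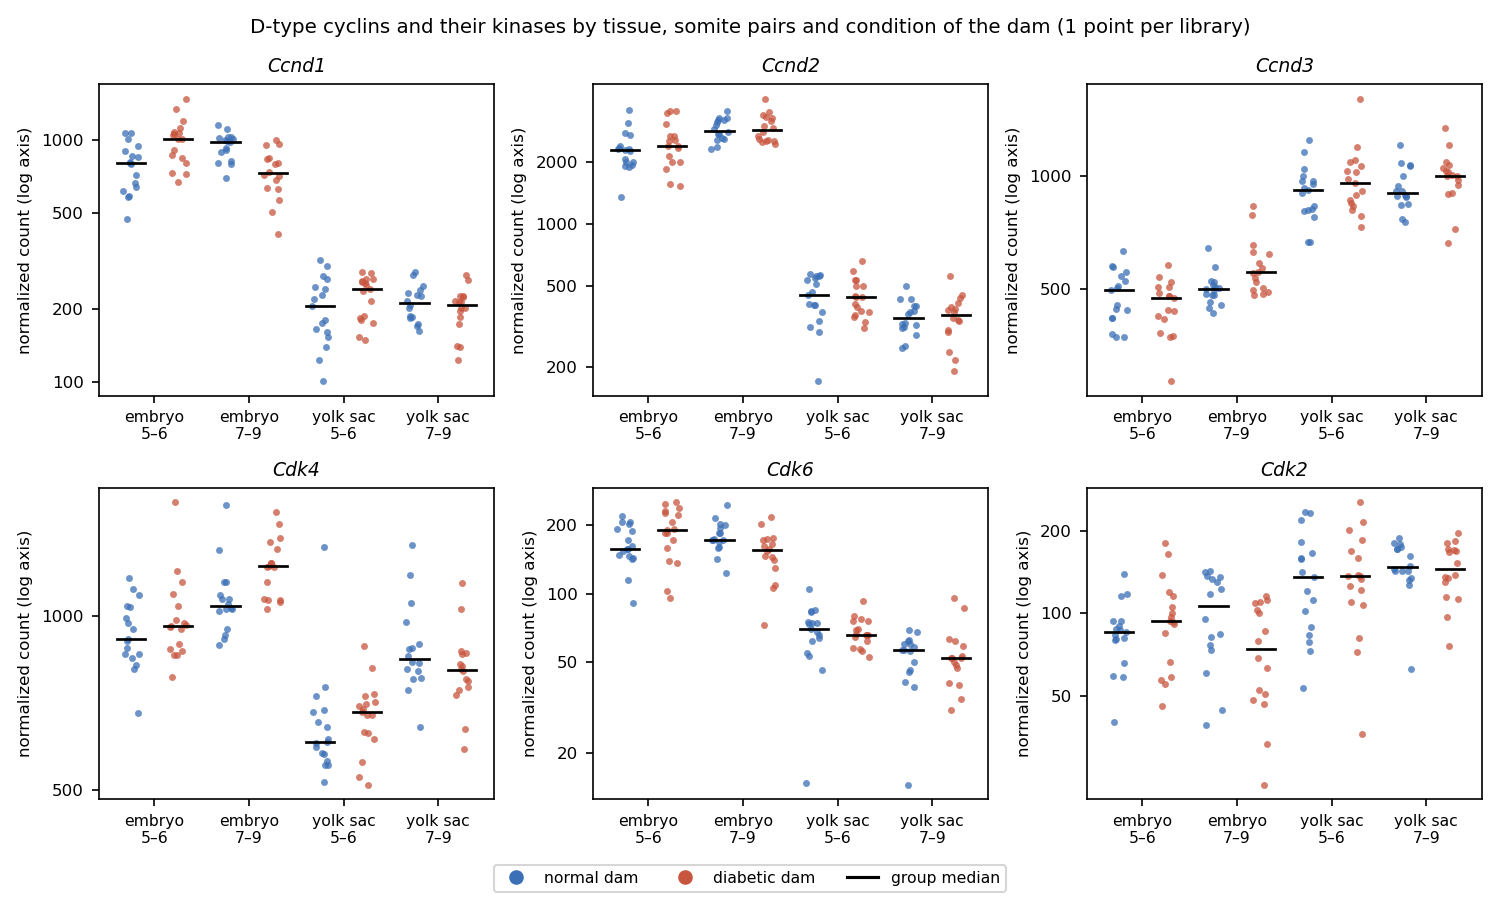
Normalized counts (y axis, log scale) of the D-type cyclin genes Ccnd1, Ccnd2 and Ccnd3 and the kinase genes Cdk4, Cdk6 and Cdk2 by tissue and somite pairs, 1 point per library (blue, normal dams; red, diabetic dams) with a line at each group median. Yolk sacs lay below every embryo for Ccnd1 (101 to 320 against 471 to 1474 at 5–6 somite pairs) and Ccnd2 and above every embryo for Ccnd3 at 5–6 somite pairs.

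Of the 12 replication genes, 10 were lower and 0 higher in yolk sacs at either stage. The helicase subunits differed by -0.32 (Mcm2), -0.79 (Mcm3), -0.35 (Mcm4), -0.45 (Mcm5), -0.68 (Mcm6) and -0.71 (Mcm7) at 5–6 somite pairs. At 7–9 they differed by -0.33, -0.86, -0.33, -0.60, -0.61 and -0.87, of which only Mcm4 did not pass (edgeR adjusted p = 0.0587). Mcm3 had 779, 948 and 1168 in the earlier embryos and 400, 522 and 679 in the earlier yolk sacs, with no overlap. Wdhd1 differed by -0.64 and -0.72, Rrm2, a subunit of ribonucleotide reductase, by -0.68 and -0.64, and Pcna, the sliding clamp, by -0.47 and -0.50. Rrm1, the partner subunit of Rrm2, did not pass at either stage (0.02 and -0.05).

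Genes of G2 and mitosis were split. Of the 8 members of mitotic entry, 3 were higher and 3 lower at 5–6 somite pairs, and 2 higher and 4 lower at 7–9. Ccna2 was higher by 0.27 and 0.29 and Aurka, a centrosome kinase, by 0.37 and 0.28, while Plk1, which Aurka activates, was lower (-0.55 and -1.08). Plk1 had 836, 1598 and 2137 in embryos against 546, 1047 and 1470 in yolk sacs early on, and 1123, 1640 and 2766 against 281, 781 and 1355 at the later stage. Both pairs of ranges overlapped. Ccnb1, cyclin B1, did not pass at either stage (0.09 and 0.12).

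Of the 12 chromosome and spindle genes, 3 were higher and 6 lower at 5–6 somite pairs, and 2 higher and 6 lower at 7–9. Kif11 was higher at both stages (0.41 and 0.19), with 99.4, 172 and 315 in embryos against 92.5, 215 and 280 in yolk sacs at 5–6 somite pairs (SE 0.08, edgeR adjusted p = 2.62e-06). Mki67, the gene of the Ki-67 antigen of dividing cells, was higher by 0.29 and 0.18. At 7–9 somite pairs it was not called without the litter D24M15. Cenpf, a kinetochore protein, differed by -0.61 and -0.70 and Top2a by -0.30 and -0.50. Neither Cenpa, the centromeric histone, nor Cenpe, a kinetochore motor, passed at either stage, and of the mitotic exit genes only Ube2c passed, at 5–6 somite pairs (-0.16).

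**Figure D5:**
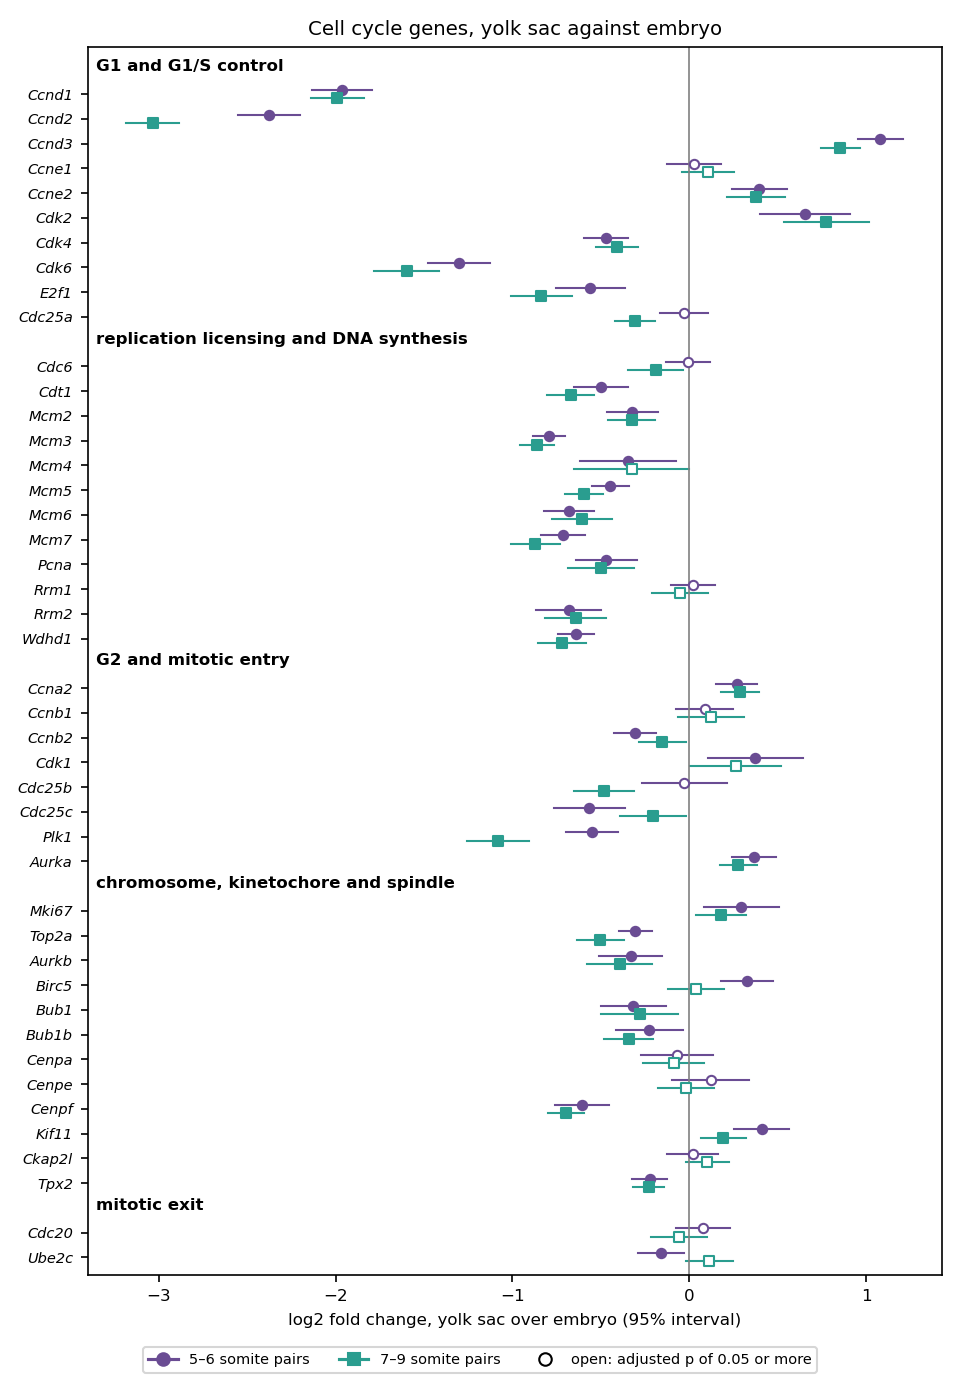
Log2 fold change of each of the 44 members in yolk sacs over embryos (x axis, with 95% intervals), grouped by role, at 5–6 and at 7–9 somite pairs, filled where the edgeR adjusted p was under 0.05. No replication gene passed above 0, Ccnd2 lay lowest of all (-2.38 and -3.03) and Ccnd3 highest (1.08 and 0.85).

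The further S phase genes showed the same imbalance, with 2 higher and 20 lower at the earlier and 2 higher and 21 lower at the later stage, of 34. The higher ones were Usp1 (0.76 and 0.64) and E2f8 (0.69 and 0.63), and Cdca7, a chromatin factor, was among the lower ones (-1.22 and -1.05). Of the 36 G2 and M phase genes 10 were higher and 13 lower, then 10 higher and 15 lower, with Nek2 (0.85 and 0.81) and Hmmr (0.80 and 0.79) at one end and Psrc1 (-1.89 and -2.11) and Pimreg (-1.48 and -1.78) at the other. Of the 7 inhibitors and pocket proteins tested, 4 were higher and 2 lower, then 5 higher and 2 lower. Cdkn2a, the locus of p16 and p19ARF, was higher by 3.33 and 3.66, and Rb1 and Rbl1 were lower (-1.13 and -1.46, -0.58 and -0.71).

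All 10 visceral endoderm markers and all 5 primitive erythroid markers were higher in yolk sacs at both stages, with medians of 5.23 and 5.68 for endoderm and of 7.81 and 5.13 for erythroid cells. The difference in cell types between the tissues cannot be told apart from a difference in the cycle of any one cell type in these libraries.

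Whether the change with stage differed between the tissues was tested as an interaction of tissue and stage. Of the 44 members 3 passed, 1 with a positive and 2 with a negative term, where 3.04% of the 12183 genes tested passed in edgeR. Ccnd2 rose with stage in embryos (0.30) and fell in yolk sacs (-0.31), an interaction of -0.60 (SE 0.11, edgeR adjusted p = 0.000138). Plk1 changed by 0.08 in embryos, without passing the test, and by -0.40 in yolk sacs, an interaction of -0.48 (SE 0.11, adjusted p = 0.00676).

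Ube2c changed by -0.13 in embryos, again without passing, and by 0.20 in yolk sacs. Its values were 227, 315 and 508 in the earlier and 146, 299 and 386 in the later embryos, and 185, 283 and 411 in the earlier and 210, 327 and 390 in the later yolk sacs. The interaction was 0.33 (SE 0.09, edgeR adjusted p = 0.0274), and it did not pass without the litter D24M15 (adjusted p = 0.0923). Ube2c overlaps Tnnc2 in the annotation. Of the 5 erythroid markers, 4 had a negative term in the same test, and their part in these 3 values was not tested.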

How the data were processed

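RNA was measured in embryos and visceral yolk sacs of NOD mice. Per the labels, the authors made 3′ QuantSeq libraries (FWD kit) in which each molecule carries a random tag, aligned reads to mm10 with STAR, collapsed reads by tag and counted genes with HTSeq. Versions, annotation and the strand setting are not given in the sources used here. The deposited values are raw counts of molecules per gene. Depth was 1017901 to 5658850 counts per library (median 2302819), and 15908 of 47643 genes had no count. Genes without a deposited symbol (26051) were named from GENCODE M21 where possible (25646). Of 136 libraries, 4 batch-control duplicates were left out.

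Groups were formed by the tissue, somite number and maternal condition in the labels. Genes were tested with edgeR 4.0.16 (glmQLFit, glmQLFTest, TMM, filterByExpr with a minimum count of 10) under R 4.3.3, adjusted by Benjamini-Hochberg over all genes tested, and an adjusted p under 0.05 was a call. Normalized counts used size factors from DESeq2 1.42.0. Litter means of log2(normalized count + 1) were compared by two-sided exact permutation. Concepti of a litter share a dam, and p-values over libraries take littermates as independent. The test was checked on simulated counts with known changes, drawn without a litter effect, so the check does not cover correlation between littermates. The members and the gene lists were chosen with earlier results of these data known. Full values are given for members called in a comparison of conditions or in an interaction (where none was called, the lowest p) and for the 3 largest called changes each way by stage and tissue. A gene of the further lists that this rule would name is not reported here. Alternatives were DESeq2's Wald test, RLE size factors, other filters, somite number, sex and title number (23, 24 or 28) as covariates, litter as a random block (limma 3.58.1), counts summed per litter, a replicate block for the conceptus, and each litter left out. The 2 tissues of a conceptus carry the same title, which pairs them. The median correlation of their deviations from the group means was 0.100 over 34 pairs and 0.0429 over 32, with 17 and 13 pairs above 0.1.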

Additional observations from a re-analysis of the deposited data

Results flagged for a closer look

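The following members had a difference between groups under the same contrast, by the test of the interaction itself. Between the stages, the effect of maternal diabetes in embryos differed for Ccnd1 by -0.69 (SE 0.15), for Mcm5 by 0.32 (SE 0.10), for Kif11 by -0.46 (SE 0.15) and for Wdhd1 by -0.31 (SE 0.10) on the log2 scale. Between the tissues, the change from 5–6 to 7–9 somite pairs differed for Ccnd2 by -0.60 (SE 0.11), for Plk1 by -0.48 (SE 0.11) and for Ube2c by 0.33 (SE 0.09). All 7 had an adjusted p under 0.05 in edgeR, Wdhd1 with the highest (0.0456). Wdhd1 lost its call with litter as a random block (adjusted p = 0.102) and without the litter D24M15 (0.0959), and Ube2c without D24M15 (0.0923). Without the filter on low counts Wdhd1 (0.106), Mcm5 (0.0845), Kif11 (0.0746) and Ube2c (0.102) lost theirs. The interaction tests called 4 and 3 of the 44 members, where 8.7% and 3.04% of all genes tested passed. Why these members differed was not tested.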

How the results depend on the processing

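No called member reversed its direction under any alternative that was run. Comparisons of stage and tissue and the remaining interactions stayed within 1.5 times the reported counts, apart from the interaction of stage and condition in embryos, which gave 1 call without the filter on low counts in place of 4. In embryos at 5–6 somite pairs the 3 calls became 1 without the filter, 1 with somite number and 1 with sex as covariate, 0 both with summed counts per litter and with a random litter block, and 0 to 6 when each litter was left out. There were 0 without D24M22, D28M02, D28M53, N28M03, N28M06, N28M22 or N28M30, 1 without D28M27, N28M05, N28M07 or N28M25, and 6 without N24M21. In the later embryos the 2 calls became 1 without the filter, 1 with sex as covariate, 6 with title number as covariate, 1 with a random litter block and 0 with summed counts per litter, and 0 to 4 when each litter was left out. There were 0 without D28M31, 4 without D24M15, and 1 without D28M23, D28M36, N24M29, N28M03, N28M05 or N28M07. The cause was not tested. With a replicate block for the conceptus, the pairing of embryo and yolk sac left 34 and 33 calls between tissues, 0 and 0 in the interactions of tissue and condition and 3 in that of tissue and stage, and changed none of these counts. Without the 2 concepti of discordant sex, chosen after seeing the data, 18 in place of 17 members passed by stage in yolk sacs and 32 in place of 33 between tissues at 7–9 somite pairs. Cdc25c and E2f1 had the lowest median normalized counts of the members (34.2 and 74.5), and how far depth limits such members was not tested.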

Other observations

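Deviations of the members from their group means were compared pair by pair. Over 132 libraries, on log2 normalized counts, the 946 pairs of members had a median Pearson r of 0.02, which was 0.08 for 206 pairs of the same role and -0.00 for 740 pairs of different roles. Of all pairs, 110 (11.6%) had an r above 0.5 and 43 (4.55%) an r below -0.5. These correlations are given as descriptions, and their cause was not tested. The libraries share litters, and the embryo and yolk sac of a conceptus share that conceptus.

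Ccnb1 and Cdk1, whose proteins form the kinase of mitotic entry, had the highest r (0.897, Spearman's rho 0.881, and 0.881 without the 2 libraries farthest from the median). Next were Mcm4 and Cenpa (r 0.866, rho 0.842) and Cenpe and Cenpf (r 0.852, rho 0.838). The lowest were Aurka and Mki67 (r -0.742, rho -0.619), Mcm5 and Bub1 (r -0.693, rho -0.694) and Cdk2 and Mcm5 (r -0.663, rho -0.635). Within the 92 libraries whose titles carry the number 28, the r of these pairs were 0.927, 0.856, 0.874, -0.757, -0.663 and -0.624. These pairs are the extremes of the 946 and were chosen after their values were seen.

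A first principal axis held 31% of the variance of the 44 members. It had 26 members on one side (Cenpa, Cdk1, Cdk2 and Mcm4 at its end) and 18 on the other (Mki67, Cdc25b, Mcm5 and Mcm3 at its end). The coefficient of variation within groups had a median of 20.6% over the members, from 10.6% for Mcm3 to 37.7% for Mcm4, which encode subunits of the same helicase.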
